A study of Mus musculus with 8 samples.

Results

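Alveolar fibroblasts are the PDGFRA-expressing interstitial fibroblasts of the gas-exchange region. In the cell table deposited with the series, 2014 of 41106 lung cells carried this name. The results below are about these 2014 cells, and other cells are named where a result also rests on them. The name was given by the study, which clustered the cells and named clusters from canonical markers. Without the 1025 cells named multiplets and the 7 named cell cycle, 40074 cells of 32 types remained. The cells came from the digested right lungs of 8 C57BL/6 mice of the cross Sftpc-CreERT2-mTmG, in which tamoxifen, given to all animals at 8 to 10 weeks of age, switches cells with surfactant protein C promoter activity from tdTomato to eGFP. The driver is meant for alveolar type 2 cells, and in fibroblasts both reporters were measured as 2 further transcripts. Then 4 mice breathed smoke of 3R4F research cigarettes (CS) and 4 mice room air (RA) for 10 months, and each mouse gave 1 library of mostly CD45-negative cells (10x Genomics 3′ chemistry, v3). The comparison of CS with RA mice asks what long smoke exposure changed in the transcripts of these cells.

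In the alveolar wall these fibroblasts lie next to alveolar type 2 (AT2) cells. They are known as a niche for them, through secreted Wnt and FGF ligands, and as makers of interstitial matrix and of retinoid and lipid stores. Because they secrete collagen, elastin and glycoproteins, they depend on the endoplasmic reticulum (ER), where chaperones fold new secretory proteins before these travel to the Golgi.

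CS mice are numbered 1 to 4 and RA mice 1 to 4, in accession order. Libraries held 2597 to 6561 cells and 31883000 to 55485600 transcripts (unique molecular identifiers, UMIs). Each lane of the sequencer held 1 CS and 1 RA library. Labels and sex-linked transcripts went apart in all 4 CS libraries: in alveolar fibroblasts, the X-inactivation transcript Xist stood at 9.80 and 10.9 per 10,000 transcripts in CS mice 1 and 2, which are labelled male, and the Y-linked Ddx3y at 2.02 and 2.37 in CS mice 3 and 4, which are labelled female. Each exposure still held 2 libraries with Xist and 2 with Ddx3y. Of the cell barcodes, 197 occurred in more than 1 library, and 14 alveolar fibroblasts carried one of these, with 1 barcode held by alveolar fibroblasts of 2 libraries.

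All 3 defining markers were at their highest in alveolar fibroblasts among 22 cell types with at least 20 cells in at least 6 mice. Levels are the mean over a mouse's cells of transcripts per 10,000 in the cell. Npnt encodes nephronectin, a basement membrane ligand of integrin α8β1, and stood at 14.5 ± 3.55 (SD, n = 8) against 6.34 ± 1.13 (SD, n = 8) in alveolar type 1 (AT1) cells, the next type. Tcf21, a transcription factor of lung mesenchyme, stood at 6.91 ± 1.73 (SD, n = 8) against 1.70 ± 0.461 (SD, n = 8) in adventitial fibroblasts, and Inmt, an amine N-methyltransferase, at 58.0 ± 4.47 (SD, n = 8) against 26.3 ± 3.52 (SD, n = 8). The ranges over mice did not overlap those of the next type for Tcf21 and Inmt, while Npnt in RA mouse 1, at 6.49, lay inside the AT1 range of 3.84 to 7.59. The cells were named from such genes, so this is a description of the class and carries no test.

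**Figure D1:**
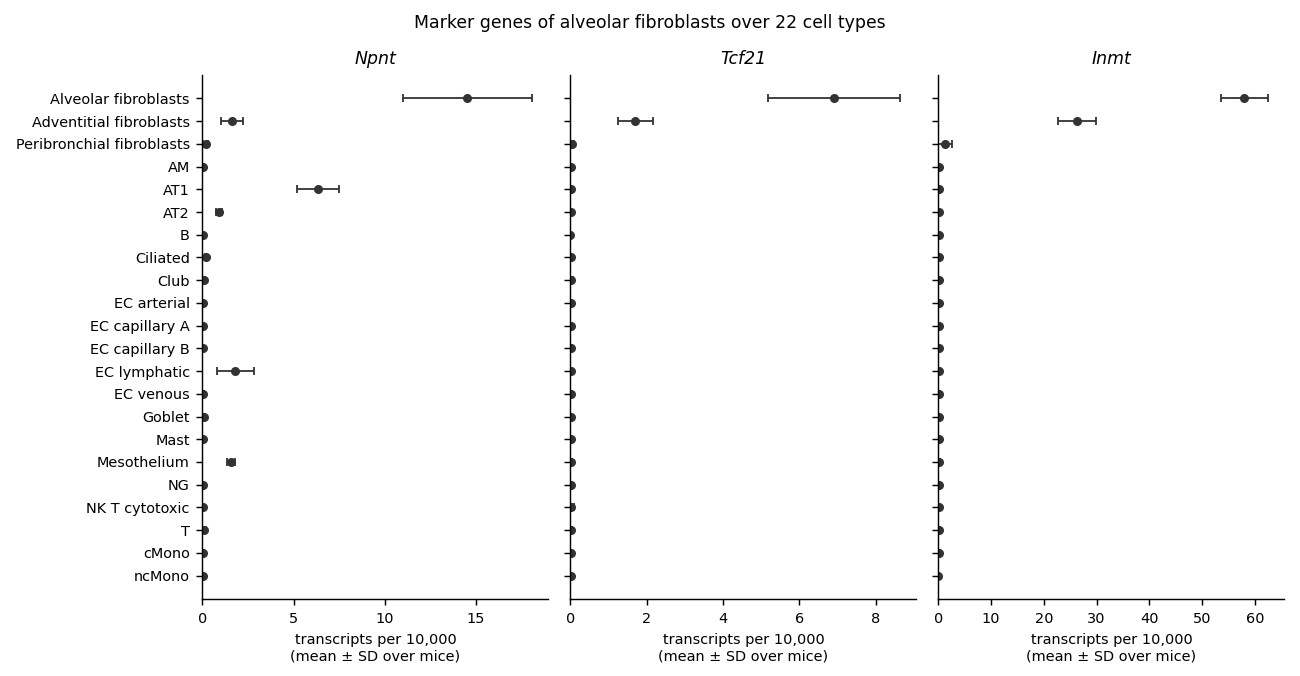
Mean level of Npnt, Tcf21 and Inmt in 22 cell types, in transcripts per 10,000, with bars for the SD over 6 to 8 mice; abbreviated type names are those of the deposited cell table. Alveolar fibroblasts hold the highest level of each gene, 14.5 for Npnt, 6.91 for Tcf21 and 58.0 for Inmt.

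All 3 markers were detected in 1655 of the 2014 cells, 2 of them in 300, 1 in 44 and none in 15. Over mice, Inmt was detected in 96.6% to 100% of the alveolar fibroblasts, Npnt in 88.9% to 100% and Tcf21 in 76.2% to 91.5%. In B cells, which should lack them and held a median of 4055 UMIs a cell against 6535 in alveolar fibroblasts, the median share over mice was 2.91% for Inmt, 1.25% for Npnt and 0 for Tcf21. With every cell thinned to 2000 UMIs, the median shares in alveolar fibroblasts were 98.5%, 88.8% and 67.0%.

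Of 1971 genes at 1 or more per 10,000 in these cells, 250 were higher there than in any other of the 22 types. The 5 with the highest ratio to the next type were Slc7a10, a transporter of small neutral amino acids (2.54 against 0.0281 in alveolar macrophages), Bmper, a secreted BMP-binding protein (3.35 against 0.0804 in adventitial fibroblasts), Fgfr4, an FGF receptor (1.49 against 0.0530 in mesothelium), Scube2, a secreted glycoprotein that helps release hedgehog ligands (3.16 against 0.202 in adventitial fibroblasts), and Prkg2, a cGMP-dependent kinase (2.76 against 0.311 in adventitial fibroblasts). Pericytes, with 20 or more cells in 3 mice only, stood outside this ranking and held Bmper at 1.15 ± 0.617 (SD, n = 3).

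Ligands and receptors of the niche set alveolar apart from adventitial fibroblasts. Wnt2, a Wnt ligand of lung mesenchyme, stood at 1.70 ± 0.158 (SD, n = 8) against 0.0787 ± 0.0332 (SD, n = 8) in adventitial fibroblasts, and the next highest type was lymphatic endothelial cells. Pdgfra, the receptor that names the lineage, stood at 9.69 ± 1.49 (SD, n = 8) against 3.58 ± 0.799 (SD, n = 8), and Itga8, the integrin α8 chain that binds nephronectin, at 12 ± 2.64 (SD, n = 8) against 1.66 ± 0.658 (SD, n = 8). Itga8 was also high in smooth muscle cells, at 7.91 ± 3.85 (SD, n = 3). Fgf10, an FGF ligand of the distal lung, stood at 1.67 ± 0.559 (SD, n = 8) against 1.02 ± 0.453 (SD, n = 8), a gap within the spread over mice. Angpt1, the Tie2 ligand, stood at 10.7 ± 1.26 (SD, n = 8), which is close to the 11.4 ± 6.64 (SD, n = 3) of pericytes.

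The fibrillar collagens went the other way. Col1a1 stood at 4.73 ± 1.16 (SD, n = 8) in alveolar and 11.8 ± 3.59 (SD, n = 8) in adventitial fibroblasts, and Col1a2 at 4.73 ± 1.25 (SD, n = 8) and 16.6 ± 4.37 (SD, n = 8). Col13a1, a membrane collagen, was higher in alveolar fibroblasts, at 3.85 ± 0.351 (SD, n = 8) against 0.764 ± 0.143 (SD, n = 8). Hsd11b1, the enzyme that turns inactive into active corticosteroid, reached 18.0 ± 5.33 (SD, n = 8) against 3.36 ± 1.23 (SD, n = 8). All of these are descriptions of the named cell classes.

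Alveolar fibroblasts numbered 59, 355, 142 and 265 in CS mice 1 to 4 and 551, 399, 171 and 72 in RA mice 1 to 4. They made up 5.2% ± 2.96 (SD, n = 4) of the cells of non-immune types in CS mice and 6.77% ± 2.62 (SD, n = 4) in RA mice, a difference of -1.56 percentage points, below either SD (two-sided exact permutation test, p = 0.429). As a share of alveolar, adventitial and peribronchial fibroblasts together they were 50.03% ± 13.5 (SD, n = 4) and 53.2% ± 7.33 (SD, n = 4), with p = 0.743 in the same exact permutation test. With 4 mice against 4, 70 assignments are possible and 0.0286 is the smallest p. Shares reflect what digestion and the CD45 mixing step released, and the deposited numbers do not tell lost cells from cells that were not released.

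Depth per cell overlapped between the exposures. The median alveolar fibroblast held 6206 to 8682 UMIs in CS mice and 5893 to 8930 in RA mice (exact permutation p = 1), and 2724 to 3369 genes against 2706 to 3519 (exact permutation p = 0.971). The median mitochondrial percentage was 0.423 to 0.619 in CS mice and 0.465 to 0.942 in RA mice (exact permutation p = 0.171).

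In CS mice, 12 of 20 tested ER chaperone genes were lower, as were Angptl4 and the corticosteroid targets Tsc22d3 and Zbtb16, 2 of 18 tested on their list. Fn1, Thbs1 and Nav2 were among the genes that were higher, while none of 17 tested collagen genes passed. Of 8520 genes detected in at least 10% of alveolar fibroblasts of either exposure, 132 (1.55%) passed an adjusted p of 0.05 in limma on log2(level + 1), with mice as units. Of these, 68 (0.798%) were higher and 64 (0.751%) lower in CS. The values of the 4 CS and 4 RA mice did not overlap for 131 of the 132, against 14.2% of all genes tested; the exception was the predicted gene Gm15726. Without adjustment, 1874 genes had p under 0.05. Fits that kept the lane as a replicate block passed 32 genes, 12 higher and 20 lower, 30 of them among the 132. Leaving out single mice lowered the count to between 44 and 87, and leaving out both mice of lane 1 (CS mouse 1 and RA mouse 1) to 44, a setting chosen after the data were seen.

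Direction went together with gene span, the distance from the first to the last exon with introns. Among genes with a known span, the median was 28.5 kb over 8482 of the genes tested. It was 116.0 kb over 67 of the 68 higher genes and 9.31 kb over the 64 lower genes. Of genes under 10 kb, 2 were called higher and 35 lower, and of genes over 300 kb 13 higher and none lower. The median log2 difference of all genes tested rose from -0.07 under 10 kb to 0.16 over 300 kb, while over all genes it was 0.00203. The authors summed reads of spliced and unspliced RNA, so UMIs from introns are in these levels, and the part of span or of unspliced RNA in the differences was not tested beyond one added fit: with the trend against span removed in each mouse, 55 genes passed, 19 higher and 36 lower, 47 of them among the 132.

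**Figure D2:**
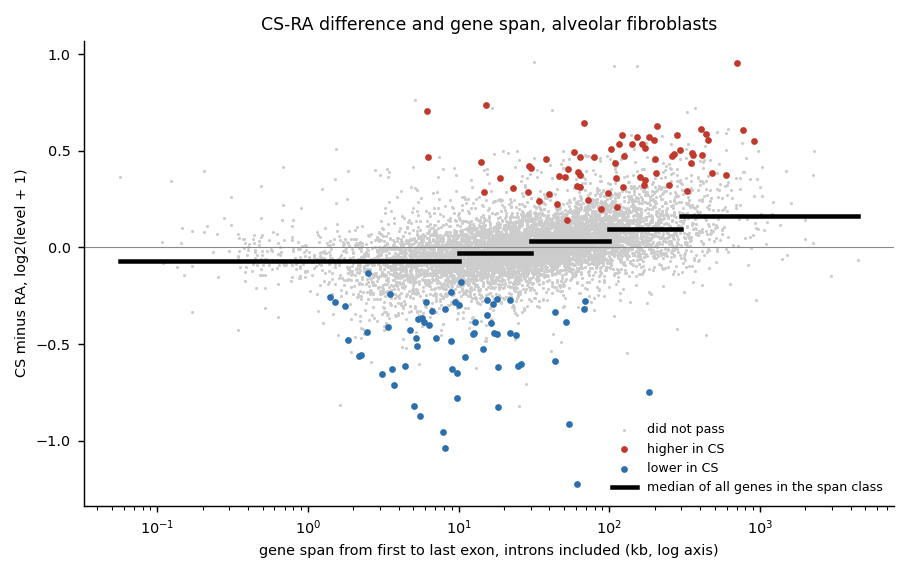
CS minus RA difference on the log2(level + 1) scale for each gene tested in alveolar fibroblasts, against gene span in kb on a log axis; red and blue points passed the test, and black bars are medians of all genes in a span class. Lower genes sit mostly at short spans and higher genes at long ones, and the medians run from -0.07 under 10 kb to 0.16 over 300 kb.

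ER chaperones held more lower genes than any other list. Of 20 measured members, 12 fell, none rose, all 20 had negative differences and 18 did not overlap between exposures, where 0.751% of all genes tested were called lower and 14.2% did not overlap; the median log2 difference was -0.46, beside 0.00203 over all genes. Earlier results of these data had already pointed to chaperones, so the list was not chosen independently of the pattern. Summed over the list, the level was 33.5, 36.3, 38.5 and 33.2 per 10,000 in CS mice 1 to 4 and 71.4, 56.0, 59.0 and 59.2 in RA mice 1 to 4.

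Hspa5 encodes BiP, the ER HSP70 that binds nascent chains and restrains the sensors of the unfolded protein response. Its level was 6.64, 7.36, 6.80 and 6.01 in CS mice 1 to 4 and 15.6, 11.3, 12 and 13.6 in RA mice 1 to 4. Every CS mouse was below every RA mouse, and the ratio of means was 0.510 (log2 difference -0.87, SE 0.13, adjusted p = 0.00692).

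Calr, the lectin chaperone calreticulin, stood at 2.49, 2.36, 2.60 and 2.40 in CS mice 1 to 4 and at 6.96, 4.66, 4.48 and 4.64 in RA mice 1 to 4. CS mice lay close together while RA mouse 1 stood above the other RA mice, and the log2 difference was -0.82 (SE 0.12, adjusted p = 0.00823). Of the protein disulphide isomerases, Pdia6 fell to 0.417 times the RA level, Pdia4 to 0.480 and Pdia3 to 0.577. Manf, a secreted ER-retained factor induced by unfolded protein, fell from 3.20 ± 0.654 (SD, n = 4) to 1.23 ± 0.372 (SD, n = 4). Sdf2l1, a component of ER chaperone complexes, was detected in 6.41% of CS and 30.3% of RA cells and so passed the filter on low genes through the RA mice alone; it stood at 0.0352, 0.125, 0.115 and 0.0824 in CS mice 1 to 4 and 0.951, 0.423, 0.553 and 0.526 in RA mice 1 to 4, a ratio of 0.146. Creld2, Dnajb11, Dnajc3, Selenos and Ppib, an ER disulphide isomerase, HSP70 co-chaperones, a degradation adaptor and cyclophilin B, also fell, to ratios between 0.301 for Creld2 and 0.681 for Ppib. Among the members that did not pass, Hsp90b1, the ER HSP90, stood at 3.45 ± 0.620 (SD, n = 4) in CS and 5.18 ± 0.582 (SD, n = 4) in RA mice (adjusted p = 0.0630), and Canx, the membrane lectin calnexin, at 1.78 ± 0.238 (SD, n = 4) and 1.99 ± 0.198 (SD, n = 4) (adjusted p = 0.501).

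**Figure D3:**
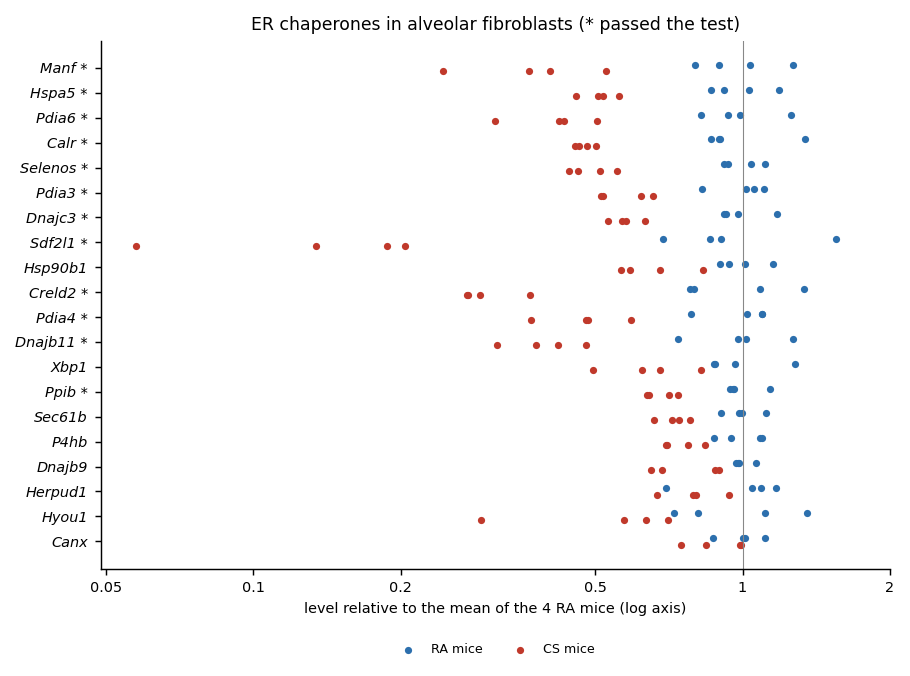
Level of 20 ER chaperone genes in alveolar fibroblasts of 4 CS and 4 RA mice, each divided by the mean of the 4 RA mice, on a log axis; an asterisk marks genes that passed the test. For Hspa5 the CS mice average 0.510 of the RA level and for Calr 0.475, while those of Canx, at 0.894, overlap the RA mice.

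Without any filter on low genes no gene passed, in this list or outside it; in all other settings between 7 and 14 of the tested members were lower, 9 with the lane as replicate block, 11 with the span trend removed and 10 without both mice of lane 1, and each had a negative difference in every setting. In adventitial fibroblasts of the same mice, 15 of the 20 were lower, with a median log2 difference of -0.53; of all 9519 genes tested in those cells 3.08% passed, 1.9% higher and 1.18% lower.

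Some promoters of these genes hold a known element, and those of the called genes that hold it are shown so that its place in each can be seen. The ER stress response element (ERSE), CCAAT followed after any 9 bases by CCACG and searched on both strands, is the sequence to which ATF6 and NF-Y are known to bind. RefSeq promoters (GRCm38.p6, 250 bases before to 50 after the gene start) matched 18 of the 20 members, and 7 of these (38.9%), 5 of them among the 12 called, held the element: Hspa5, Calr, Pdia6, Creld2, Dnajc3, Hsp90b1 and Canx. Over 27025 genes with a promoter in the table the share was 0.137%. The element is named for the ER stress response and was not picked independently of a list of ER chaperones. The gap between these shares therefore carries no test. A second form, ERSE-II (ATTGG, any base, then CCACG), was in Dnajb11 and Herpud1, against 0.0444% of all. Below are the 250 bases before the gene start of the 5 called genes with an ERSE, each 5′ to 3′ on the gene's strand, with the match in capitals; they lie at chr2:34771840-34772089 for Hspa5, chr8:84846932-84847181 (minus strand) for Calr, chr12:17266339-17266588 for Pdia6, chr15:88819396-88819645 for Creld2 and chr14:118937682-118937931 for Dnajc3.
Hspa5: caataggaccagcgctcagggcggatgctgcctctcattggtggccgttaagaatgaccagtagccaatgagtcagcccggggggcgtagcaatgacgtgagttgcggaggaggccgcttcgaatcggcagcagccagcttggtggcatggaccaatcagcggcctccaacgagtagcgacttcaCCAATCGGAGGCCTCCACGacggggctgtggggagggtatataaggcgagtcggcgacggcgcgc
Calr: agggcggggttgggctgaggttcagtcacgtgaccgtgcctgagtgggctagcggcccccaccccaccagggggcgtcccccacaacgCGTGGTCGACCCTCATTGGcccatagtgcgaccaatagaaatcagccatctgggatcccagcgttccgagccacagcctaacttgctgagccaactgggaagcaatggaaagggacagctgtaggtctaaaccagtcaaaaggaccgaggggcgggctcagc
Pdia6: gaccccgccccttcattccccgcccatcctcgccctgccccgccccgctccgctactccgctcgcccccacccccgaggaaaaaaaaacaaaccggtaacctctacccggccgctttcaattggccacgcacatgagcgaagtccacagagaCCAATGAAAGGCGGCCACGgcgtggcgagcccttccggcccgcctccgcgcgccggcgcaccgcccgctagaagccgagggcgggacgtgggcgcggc
Creld2: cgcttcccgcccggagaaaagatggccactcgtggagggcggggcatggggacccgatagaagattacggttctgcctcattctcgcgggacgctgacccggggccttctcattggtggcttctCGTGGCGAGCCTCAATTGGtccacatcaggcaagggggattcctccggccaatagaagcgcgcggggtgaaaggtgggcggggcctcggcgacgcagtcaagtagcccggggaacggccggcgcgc
Dnajc3: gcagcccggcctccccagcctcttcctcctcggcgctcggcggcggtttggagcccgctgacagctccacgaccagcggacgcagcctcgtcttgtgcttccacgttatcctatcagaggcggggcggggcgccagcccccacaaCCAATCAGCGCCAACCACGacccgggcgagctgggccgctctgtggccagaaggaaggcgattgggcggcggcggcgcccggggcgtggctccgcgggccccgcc
Counted from the gene start, the element begins at position -65 in Hspa5, -98 in Pdia6, -105 in Dnajc3, -126 in Creld2 and -162 in Calr. A match names letters, not binding, and Hsp90b1 (2 matches) and Canx, which hold the same element, did not pass the test.

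On a list of 37 tested translocon, signal peptidase and oligosaccharyltransferase genes, written after the differences had been seen, 4 fell: Spcs2, a signal peptidase subunit (ratio 0.489), Ssr2, a translocon-associated protein (0.529), Magt1, an oligosaccharyltransferase subunit (0.593), and Serp1, a stress-associated ER protein (0.667). On a list of 38 ER to Golgi carriers, likewise written afterwards, 3 fell: the cargo receptors Tmed3 and Tmed9 and the KDEL receptor Kdelr2 (0.558). Neither list had a riser, 0.751% of all genes were called lower, and the medians of these lists were -0.13 and -0.11.

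Collagen chains themselves did not pass. Of 17 tested collagen genes none was called, beside 1.55% of all genes tested. Their median log2 difference was 0.13, with positive differences for 15. The exposures did not overlap for 2 of the 17, both higher in CS, against 14.2% of all genes tested. Col1a1 and Col3a1 overlapped. Of 21 genes of collagen processing, 2 fell and 1 rose, beside 0.751% and 0.798% of all genes tested. Serpinh1 (chr7:99345376-99353239) encodes HSP47, the collagen-specific ER chaperone, and stood at 3.16, 3.04, 2.99 and 2.44 in CS mice 1 to 4 against 6.80, 4.93, 7.25 and 7.51 in RA mice 1 to 4 (log2 difference -0.95, SE 0.13, adjusted p = 0.00501). All CS mice were below all RA mice. The other lower gene was Ppib, which forms part of the prolyl 3-hydroxylation complex, and the higher one Adamts2, the procollagen N-propeptidase (ratio 1.51, adjusted p = 0.0437).

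Of 25 tested cytosolic chaperones, 3 fell, none rose and 8 did not overlap (over all genes 0.751% were called lower and 14.2% did not overlap), with a median of -0.16: Hspa8, the constitutive HSP70 (ratio 0.602), Fkbp4, a co-chaperone of steroid receptors (0.437), and Cryab, a small heat shock protein (0.587). Only 1 of the 25 was called lower with the lane as replicate block, thinned to 2000 UMIs, with equal cells per mouse, with the span trend removed, without both mice of lane 1 or without any 1 mouse other than CS mouse 2 and RA mouse 2, where 2 were. Hsp90ab1, the constitutive cytosolic HSP90, stood at 8.44 ± 1.73 (SD, n = 4) in CS and 13.2 ± 1.60 (SD, n = 4) in RA mice (adjusted p = 0.0558), and Hspb1, a small heat shock protein, at 8.81 ± 4.15 (SD, n = 4) and 16 ± 4.92 (SD, n = 4) (adjusted p = 0.109). The heat-inducible Hspa1a stood at 10.4, 28.9, 7.83 and 10.5 in CS mice 1 to 4 and at 7.36, 4.72, 24 and 21.9 in RA mice 1 to 4. Both mice of lane 3 (CS mouse 2 and RA mouse 3) were among its 3 highest.

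Target genes of the glucocorticoid receptor held the called gene with the most negative log2 difference. Of 18 tested members of the list, 2 fell and none rose, with a median of -0.20, where 0.751% of all genes tested were called lower and their median was 0.00203. Tsc22d3 (GRCm38 chrX:140539528-140600659) encodes GILZ, an anti-inflammatory mediator induced by corticosteroid, and stood at 1.45, 1.28, 2.18 and 2.08 in CS mice 1 to 4 against 7.39, 3.92, 6.32 and 4.4 in RA mice 1 to 4. The exposures did not overlap, and the ratio of means was 0.317 (log2 difference -1.23, SE 0.17, adjusted p = 0.00534). Zbtb16, the zinc finger factor PLZF, stood at 7.32, 4.65, 5.07 and 6.5 in CS mice 1 to 4 and at 10.2, 10.2, 11.9 and 9.44 in RA mice 1 to 4 (adjusted p = 0.0233).

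The receptor gene Nr3c1 stood higher in every CS mouse, at 2.44 ± 0.144 (SD, n = 4) against 1.62 ± 0.340 (SD, n = 4), without passing (adjusted p = 0.0572), and Hsd11b1 stood at 14.9 ± 0.876 (SD, n = 4) against 21.1 ± 6.26 (SD, n = 4) (adjusted p = 0.149). Outside the list, Glul, glutamine synthetase (ratio 0.455), Cebpd, a CCAAT enhancer binding factor (0.579), and Klf15, a Krüppel-like factor (0.480), fell. They are known to respond to corticosteroid but were picked from the called genes, so they add nothing to the list's count, and Klf15 was named after its values were seen. List members that did not pass included Dusp1, a phosphatase of MAP kinases, at 13.9 ± 2.10 (SD, n = 4) in CS and 15.5 ± 1.5 (SD, n = 4) in RA mice (adjusted p = 0.525), and Per1, a clock gene, at 1.69 ± 0.229 (SD, n = 4) and 1.23 ± 0.309 (SD, n = 4) (adjusted p = 0.149). Only 1 list member was called lower with the lane as replicate block, with equal cells per mouse or without cells with transcripts of other types. The same held without CS mouse 2, CS mouse 3, RA mouse 2 or RA mouse 3. The list median was -0.10 without RA mouse 1 and -0.06 without both mice of lane 1.

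Of 14 tested lipofibroblast and lipid genes only Angptl4 (chr17:33773750-33781830), a secreted inhibitor of lipoprotein lipase, passed, where 0.751% of all genes tested were called lower. Its level was 0.686, 1.19, 1.24 and 1.54 in CS mice 1 to 4 and 4.10, 2.52, 3.37 and 3.72 in RA mice 1 to 4 (log2 difference -1.04, SE 0.14, adjusted p = 0.00501). It was detected in 30.5% to 87.5% of the alveolar fibroblasts of a mouse. Outside that result, Apoe, the lipid carrier apolipoprotein E, fell from 28.8 ± 0.912 (SD, n = 4) to 18.2 ± 3.77 (SD, n = 4), and Plin3, a lipid droplet coat protein named after its values were seen, to 0.618 times the RA level (adjusted p = 0.0469).

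Atf5, a transcription factor of the integrated stress response, also fell (ratio 0.547). It was 1 of 6 tested members of that list, where 0.751% of all genes tested were called lower. Further genes that fell were named after their values were seen. They were Ifngr1, the ligand-binding chain of the interferon γ receptor (0.588), the actin gene Actb (0.634) and Gsn, the actin-severing gelsolin (0.764). Gsn was among the most abundant transcripts of these cells, at 144 ± 4.71 (SD, n = 4) per 10,000 in RA and 110 ± 5.31 (SD, n = 4) in CS mice, with no overlap.

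Among the genes called higher in CS, Fn1 (chr1:71585520-71653200), fibronectin, stood at 12.7, 12.5, 10.6 and 9.29 in CS mice 1 to 4 and at 6.74, 6.56, 7.63 and 6.38 in RA mice 1 to 4 (ratio 1.65, log2 difference 0.64, SE 0.13, adjusted p = 0.0303). It was the only one of 19 tested integrin, laminin and adhesion genes to pass, where 0.798% of all genes tested were called higher. Of the 19, 17 had positive differences, with a list median of 0.26. The exposures did not overlap for 8 of the 19, all higher in CS, against 14.2% of all genes tested. Thbs1, thrombospondin 1, an activator of latent TGF-β, stood at 13.8, 12, 12.7 and 16.4 in CS mice 1 to 4 and at 9.52, 6.64, 8.98 and 6.52 in RA mice 1 to 4 (ratio 1.74, adjusted p = 0.0303). For both genes the lowest CS mouse was above the highest RA mouse.

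Svep1, a large extracellular matrix protein, rose from 3.04 ± 0.265 (SD, n = 4) to 4.83 ± 0.176 (SD, n = 4), Mrc2, the collagen uptake receptor Endo180, from 2.84 ± 0.423 (SD, n = 4) to 4.4 ± 0.532 (SD, n = 4), and Ddr1, a collagen receptor kinase, from 0.326 ± 0.0477 (SD, n = 4) to 0.643 ± 0.0681 (SD, n = 4). These 3 were named after their values were seen. Bmper, among the genes that most set alveolar fibroblasts apart, stood at 4.12, 4.07, 3.83 and 4.19 in CS mice 1 to 4 and at 2.27, 2.72, 2.86 and 2.75 in RA mice 1 to 4 (ratio 1.53, adjusted p = 0.0303).

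On a list of glycosaminoglycan enzymes written after the differences had been seen, 4 of 26 tested rose (0.798% of all genes were called higher) and none fell, with a median of 0.07. Sulf1, which removes 6-O-sulphate from heparan sulphate, rose 2.54-fold (0.537, 0.489, 0.536 and 0.410 in CS mice 1 to 4, 0.118, 0.227, 0.273 and 0.158 in RA mice 1 to 4). Ndst1, which N-sulphates heparan sulphate, rose 1.69-fold, Chst3, a chondroitin 6-O-sulphotransferase, 2.07-fold and Chsy3, a chondroitin synthase, 1.55-fold. None of the 4 genes overlapped between exposures, and their adjusted p ran from 0.0120 for Sulf1 to 0.0395 for Chsy3.

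The called gene with the highest log2 difference was Nav2, a cytoskeleton regulator related to neuron navigation, at 5.57, 4.51, 4.36 and 5.99 in CS mice 1 to 4 and 2.15, 2.40, 2.23 and 1.79 in RA mice 1 to 4 (ratio 2.38, log2 difference 0.95, SE 0.11, adjusted p = 0.00501). Its relative Nav3 rose 2.99-fold. Zeb1, a transcription factor of mesenchymal state, rose 1.64-fold, Zfpm2, a GATA cofactor, 1.68-fold and Hivep3, a zinc finger protein, 1.65-fold. Ablim1, an actin-binding protein, and Sipa1l2, a Rap GTPase activating protein, rose 2.18-fold and 2.01-fold. Trabd2b, an inhibitor of Wnt proteins, rose 2.5-fold and Kcnb2, a potassium channel subunit, 2.19-fold. Nav2, Nav3, Zfpm2, Kcnb2, Hivep3, Ror1 and Chsy3 each span over 300 kb, a class with a median difference of 0.16. S1pr3 and Bhlhe40, also higher, span 14159 and 6297 bases. With the span trend removed 19 genes were called higher, against 68 in the main fit. The part of span in single genes was not tested. Among genes named after their values were seen, the Wnt5a receptor Ror1 rose 1.77-fold, the sphingosine 1-phosphate receptor S1pr3 1.95-fold, the Groucho corepressor Tle3 2-fold and the gap junction gene Gja5 1.73-fold. Bhlhe40, a clock-controlled repressor, rose 2.17-fold. It was the 1 of 12 tested clock output genes to pass, where 0.798% of all genes tested were called higher. The list had a median of 0.38, with all 12 differences positive. Of the 12, 11 had an unadjusted p under 0.05 in limma, against 1874 of all 8520 genes tested. Summed over the list, the level was 13.4 to 20.1 in CS mice and 4.60 to 12 in RA mice, which did not overlap. The lowest sum was that of RA mouse 1. Dbp, a clock output factor, was 4.27, 3.06, 2.27 and 1.5 in CS mice 1 to 4 and 0.142, 1.18, 1.76 and 2.09 in RA mice 1 to 4 (adjusted p = 0.141).

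**Figure D4:**
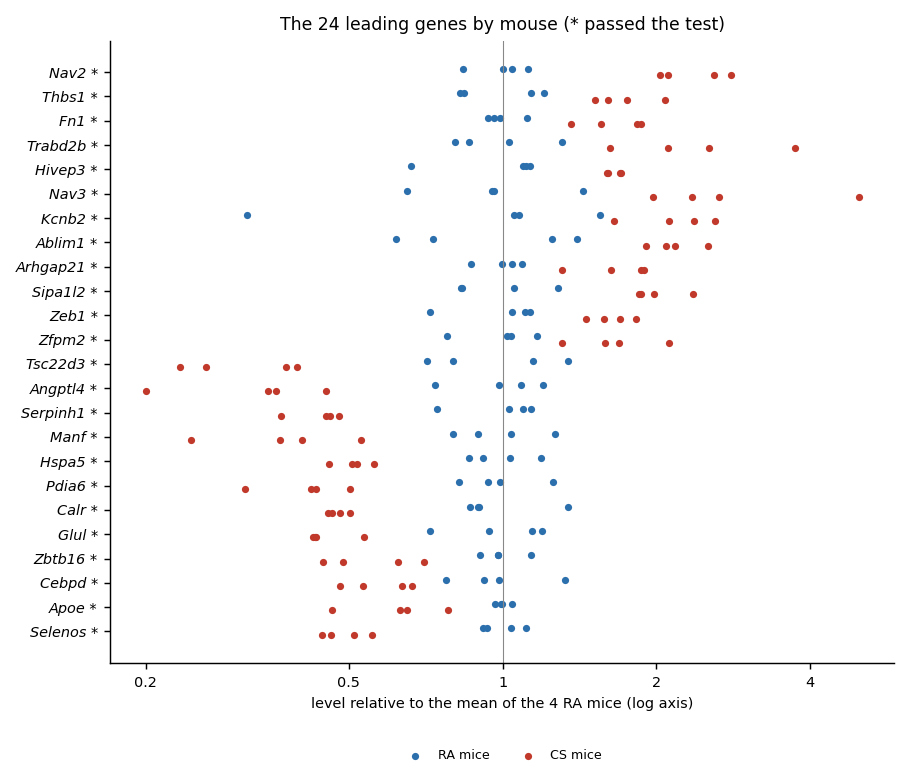
Level of the 12 genes with the largest increase and the 12 with the largest decrease among those that passed without overlap, by mouse, each divided by the mean of the 4 RA mice, on a log axis. CS mice average 2.38 of the RA level for Nav2 and 0.317 for Tsc22d3, and no gene shown overlaps between exposures.

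Most genes that give alveolar fibroblasts their role showed no called difference, as did most genes tested, of which 1.55% were called. None of the 3 markers passed: Npnt stood at 16.7 ± 0.577 (SD, n = 4) in CS and 12.3 ± 3.99 (SD, n = 4) in RA mice, Tcf21 at 5.94 ± 1.72 (SD, n = 4) and 7.88 ± 1.22 (SD, n = 4), and Inmt at 55.9 ± 1.25 (SD, n = 4) and 60.1 ± 5.74 (SD, n = 4), with adjusted p of 0.196, 0.205 and 0.587. Npnt nonetheless stood higher in every CS mouse than in any RA mouse, while Tcf21 and Inmt overlapped. Of 24 further alveolar fibroblast genes none passed (median 0.05), and 5 did not overlap, 4 of them higher in CS, against 14.2% of all genes tested. Of the listed genes, none of 18 Wnt, 15 FGF, 25 BMP and TGF-β, 16 elastic fibre or 9 retinoid genes passed. The same held for 12 chemokine and cytokine, 9 complement, 35 NRF2 and antioxidant, 15 senescence and p53 and 21 interferon-stimulated genes. Called genes outside these lists included Ror1, Trabd2b, Bmper and Thbs1, described above with ties to Wnt, BMP or TGF-β. Wnt2 stood at 1.60 ± 0.120 (SD, n = 4) in CS and 1.79 ± 0.139 (SD, n = 4) in RA mice (log2 difference -0.10, SE 0.08), and Fgf10 at 1.96 ± 0.650 (SD, n = 4) and 1.37 ± 0.271 (SD, n = 4) (0.30, SE 0.13). Eln, elastin, ranged from 0.797 to 2.18 in CS mice and from 1.26 to 5.85 in RA mice. A gene that missed the threshold is not thereby shown to be alike in both exposures.

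Most markers of other cell types were below the detection filter and were not tested. Those tested were 7 of 12 adventitial, 4 of 7 endothelial, 3 of 7 AT2 and 2 of 5 AT1 markers. Also tested were 2 of 9 smooth muscle and myofibroblast, 1 of 11 immune, 1 of 8 pericyte and 1 of 7 peribronchial markers. No mesothelial or erythrocyte marker was tested. None of the markers tested passed, where 1.55% of all genes tested were called. The summed level of 7 AT2 markers was 0.757 to 16.7 per 10,000 in CS mice and 0.510 to 9.33 in RA mice, with the highest values in CS mouse 1 and RA mouse 1, both of lane 1, and that of 11 immune markers 0.639 to 5.16 and 0.558 to 4.51; 4 of the AT2 and 10 of the immune genes were detected in under 10% of cells, and none of either list was at 0 in all mice. The 12 adventitial markers summed to 7.48 to 9.59 in CS and 7.27 to 12.3 in RA mice, and the 9 smooth muscle and myofibroblast genes to 2.73 to 3.88 and 1.83 to 4.32. The 7 endothelial markers summed to 4.01 to 5.58 in CS and 3.35 to 7.30 in RA mice, and Pecam1 was detected in 39.5% and 33.6% of the cells. The part of these transcripts in the differences was not tested beyond the fit without such cells. Peribronchial markers (7 genes, 0.627 to 1.03 in CS and 0.443 to 0.610 in RA mice) did not overlap. Without the cells that held a transcript of Ptprc, Pecam1, Epcam or Cdh5, 39 genes passed, 15 higher and 24 lower, among them 11 ER chaperones.

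A test of the difference between fibroblast types asked where alveolar cells responded otherwise than adventitial ones. For each mouse the adventitial log2 value was taken from the alveolar one, and CS was compared with RA on that difference. Of 9783 genes, 6 (0.0613%) passed, 3 with a higher (0.0307%) and 3 with a lower (0.0307%) effect in alveolar cells, and 800 had an unadjusted p under 0.05. Angptl4 stood lower in CS in both types, though it did not pass in adventitial cells alone. Its log2 difference was -1.04 in alveolar and -0.41 in adventitial cells (difference of effects -0.63, SE 0.07, adjusted p = 0.0143). Its level was 1.16 in CS and 3.43 in RA mice in alveolar cells. In adventitial cells it was 0.597 and 1.13, where log2(level + 1) shrinks a change more. Sipa1l2 was higher mainly in alveolar cells (0.57 against 0.09, adjusted p = 0.0159). For the other 4 the larger change was adventitial. Ptch1, the hedgehog receptor and a target of that pathway, stood in adventitial cells at 2.92, 1.82, 2.46 and 2.05 in CS mice 1 to 4 and at 0.749, 0.865, 0.780 and 0.679 in RA mice 1 to 4, and in alveolar cells at 1.16, 0.799, 0.935 and 0.953 against 0.544, 0.754, 0.874 and 0.595 (difference of effects -0.68, SE 0.08, adjusted p = 0.0143).

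Txnip, a thioredoxin-binding protein, had log2 differences of -0.20 in alveolar and 0.46 in adventitial cells, Ugdh, the enzyme that makes UDP-glucuronate for glycosaminoglycans, 0.18 and -0.67, and Spon2, a secreted matrix protein, -0.14 and -0.96. Of these 4, none passed in alveolar fibroblasts alone. The 6 calls are fragile: no gene passed with the lane as replicate block, at a pseudocount of 0.1, with cells thinned to 2000 UMIs, without CS mouse 2, without CS mouse 3 or without both mice of lane 1. Without RA mouse 3, 3 genes passed.

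**Figure D5:**
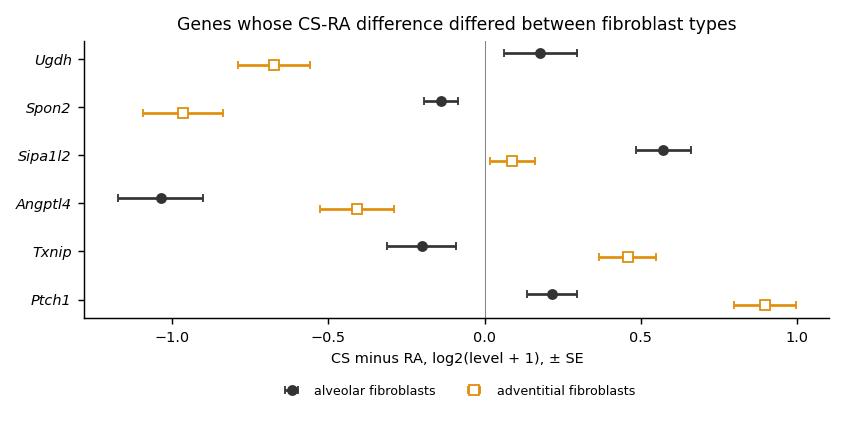
CS minus RA difference on the log2(level + 1) scale, with bars for 1 SE, for the 6 genes whose difference itself differed between alveolar (filled) and adventitial (open) fibroblasts. Angptl4 and Sipa1l2 differ more in alveolar cells, and Ptch1, Txnip, Ugdh and Spon2 more in adventitial cells.

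Both reporter transcripts were read in alveolar fibroblasts. eGFP stood at 5.2, 4.81, 4.28 and 3.59 per 10,000 in CS mice 1 to 4 and at 2.37, 2.89, 3.67 and 3.37 in RA mice 1 to 4. Only CS mouse 4 lay within the RA range, and the difference did not pass (exact permutation p = 0.0571; limma over all genes, adjusted p = 0.0950). The level in AT2 cells, where the driver acts, was 71.2 ± 8.83 (SD, n = 8), that in peribronchial fibroblasts 4.89 ± 2.36 (SD, n = 6), that in the endothelial cells named capillary B 5.73 ± 0.981 (SD, n = 8), that in adventitial fibroblasts 1.19 ± 0.208 (SD, n = 8) and that in B cells 0.447 ± 0.217 (SD, n = 8). The share of alveolar fibroblasts with eGFP was 58.6% to 81.4% (37.9% in the median mouse after thinning to 2000 UMIs), beside 10.4% to 23.2% of B cells (8.27% after thinning). tdTomato stood at 0.763 to 1.45 in CS and 1 to 1.52 in RA mice (exact permutation p = 0.400). Over all 8 mice alveolar fibroblasts, at 3.77 ± 0.951 (SD, n = 8), had rank 5 of 22 types, so eGFP was not particular to them. The source of eGFP reads in alveolar fibroblasts was not tested.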

How the data were processed

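Single-cell RNA-seq of 8 right lungs was analysed from the deposited matrix, gene list and cell table. Per the study's methods, the authors aligned reads with STAR 2.7.3a to GRCm38.p6 with eGFP and tdTomato added, summed spliced and unspliced reads, filtered cells, took off free RNA with SoupX and named clusters. The methods remove cells over 5% mitochondrial, yet the table holds some (RA mouse 1 has 537 of 551 alveolar fibroblasts at or under it). They were kept, and 113 genes passed without them. The deposited values are estimated counts of UMIs, 1.28% of them whole within 1e-06, and not scaled. The cell table by the authors holds counts of genes per cell and the percent of mitochondrial transcripts.

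Each cell was scaled to 10000 transcripts and averaged per mouse. limma 3.58.1 (R 4.3.3; moderated, trended variance) compared 4 CS with 4 RA mice on log2(level + 1), without covariates, for genes in at least 10% of cells of either exposure; p-values were adjusted over all genes by Benjamini and Hochberg. Fold ratios are of group means, and log2 differences understate changes of low genes. Since values are not whole, no count model was used. The limma p-values set the difference between exposures against the moderated spread over mice. Single values were compared by exact permutation tests, two-sided. The fit was also run on simulated data, with means and spread taken from the real values. The deviations of the 2 mice of a lane, a pairing given by the lane number in the labels, correlated at -0.145, 0.00512, -0.106 and -0.104 over genes. Named genes were the 3 markers, reporters, up to 12 called genes per direction with the largest difference and no overlap, list members that passed, the 4 highest others of each list, called difference genes, and the 5 most restricted. The result for 1 gene this rule names is not reported here. Members and gene lists were chosen with earlier results of these data known. Gene spans are from GENCODE M21 (99.6% of genes tested matched), and promoters from RefSeq. A few list genes, such as Cyr61 and Ctgf under those symbols, were not analysed here. Alternatives covered pseudocount, filters, scaling, depth, cells, lane, labelled sex and single mice.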

Additional observations from a re-analysis of the deposited data

Results flagged for a closer look

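Among 76 groups of 4 mice examined for a value far from the others, 4 had one, where about 1 in 20 (3.8) is given by chance. Tcf21 stood at 9.69 per 10,000 in RA mouse 4, above 7.03 to 7.47 in the other RA mice. Hivep3 stood at 2.29 in RA mouse 1, below 3.79 to 3.91 in the others, and Calr at 6.96 in the same mouse, above 4.48 to 4.66. Glul stood at 1.85 in CS mouse 1, above 1.46 to 1.48 in the other CS mice. Each of these mice stayed on its own exposure's side for Hivep3, Calr and Glul.

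The CS effect differed between alveolar and adventitial fibroblasts, tested on the difference itself, for 6 genes. The alveolar effect was less positive or more negative than the adventitial one for Angptl4 (difference of effects -0.63 on the log2 scale), Ptch1 (-0.68) and Txnip (-0.66), and the reverse for Ugdh (0.85), Sipa1l2 (0.48) and Spon2 (0.83).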

How the results depend on the processing

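The count of 132 genes depended on the setting, and the cause was not tested. It was 281 with genes in at least 25% of cells, 212 with labelled sex as a term (which goes against Xist and Ddx3y in the 4 CS libraries), 32 with the lane as replicate block, 29 with cells thinned to 2000 UMIs, 21 with equal cells per mouse, 39 without cells with transcripts of other types, and 0 with no filter on genes (2586 unadjusted), where 27652 genes were tested. Leaving out 1 mouse gave 44 to 87. Settings added after seeing the data gave 44 without both mice of lane 1 and 55 with the span trend removed. A rank-sum test over cells, which treats cells as replicates, gave 1213. Of 60 called genes followed one by one, none turned direction in any setting, and of their 1377 values 517 missed the threshold.

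The count of 6 for the difference between fibroblast types was 0 with no filter, at a pseudocount of 0.1, with the lane as replicate block, thinned to 2000 UMIs and without both mice of lane 1, 3 with summed counts, and 0 to 7 without 1 mouse.

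Of values that did not pass, the share of non-immune cells (-1.56 points) ran from -2.84 to -0.507 without 1 mouse, and the share of fibroblasts (-3.21 points) turned to 1.5 as a share of stromal cells and ran from -8.13 to 2.66 without 1 mouse. Without 1 mouse, the difference in median UMIs ran from -511.7 to 579.8, in median genes from -145 to 126, in mitochondrial percent from -0.266 to -0.107 (exact permutation p = 0.0286 without RA mouse 3) and in eGFP from 1.15 to 1.69 (p = 0.0286 in the same exact permutation test without CS mouse 4). Inmt turned to 0.19 with quantile normalization, and Ugdh in alveolar cells to -0.14 without cells with transcripts of other types. With cells thinned to 2000 UMIs, 8 of 20 ER chaperones were called lower, and the part of depth in this was not tested.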

Other observations

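Nuclear genes of oxidative phosphorylation, which make up the respiratory chain, had a median log2 difference of -0.13 over 35 tested. None of the 35 passed, beside 1.55% of all genes tested, and 33 were negative. Against 14.2% of all genes tested, 11 of these genes did not overlap between exposures. Their summed level was 45.7 to 50.1 per 10,000 in CS mice and 53.8 to 61.8 in RA mice. Mouse counterparts of genes at COPD risk loci had 20 tested members, 8 negative and 12 positive, with a median of 0.11. None of the 20 passed, beside 1.55% of all genes tested. Of the 20, 8 had an unadjusted p under 0.05 in limma, against 1874 of all 8520 genes tested. The exposures did not overlap for 4 of the 20, 3 of them higher in CS. Hedgehog genes had 5 tested members and none passed in alveolar fibroblasts, where 1.55% of all genes tested were called. In adventitial fibroblasts of the same mice 2 of 7 were higher, where 1.9% of all genes tested in those cells were called higher.

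In adventitial fibroblasts the same comparison passed 293 of 9519 genes, 181 higher and 112 lower in CS. Nupr1, a stress-induced chromatin protein, stood at 2.88 ± 0.461 (SD, n = 4) in CS and 4.30 ± 0.531 (SD, n = 4) in RA alveolar fibroblasts without overlap, and did not pass (adjusted p = 0.0649).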
